A study of Homo sapiens with 6 samples.

Results

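The antibody genes of SU-DHL-8 cells were followed as the gene segments and constant genes of the 3 immunoglobulin loci: heavy chain (IGH, chromosome 14), kappa light chain (IGK, chromosome 2) and lambda light chain (IGL, chromosome 22). They were chosen by symbol, as every symbol that begins with IGH, IGK or IGL followed by V, D, J, C, G, A, M or E and that had at least 20 read counts over the 6 libraries. Of 440 such symbols, among 65746 in the series, 63 met this rule. IGHMBP2 met it by its letters alone and encodes a helicase, so it was left out, and shares were computed over the other 62. At the edge of the rule, 12 genes had 20 to 40 counts and 19 more had 10 to 19.

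SU-DHL-8 is an established line of diffuse large B-cell lymphoma, a tumour of mature B cells, and its genotype is labelled wild type throughout. The erianin group had been exposed for 24 h to 100 nM erianin, a bibenzyl found in Dendrobium orchids, and the DMSO group to the solvent alone. RNA sequencing of total RNA gave 3 libraries per group from this single line. Whether the replicates were separate cultures is not stated in the labels, so the spread behind each p-value may be technical in part.

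Total counts were 32844464 to 35307027 in the erianin libraries and 30956443 to 35588728 in the DMSO libraries. DMSO replicate 1 stood apart: its biological coefficient of variation was 0.292 and 0.295 against DMSO replicates 2 and 3, while these differed by 0.038 from each other and the erianin libraries by 0.0336 to 0.0815. The 7 B-cell markers summed to 5830 to 6390 CPM (counts scaled by edgeR's TMM factors to a common library size) in erianin libraries and 8110 to 8160 CPM in DMSO libraries. CD74, the highest, was at 3539 to 3834 CPM with erianin and 4436 to 5407 CPM with DMSO. MS4A1, the lowest, was at 9.72 to 14.19 CPM with erianin and 14.59 to 24.44 CPM with DMSO. Of 5 T-cell markers, CD3G and CD2 had no count, and CD3D and CD3E were under 0.1 CPM. The remaining marker, TRAC, was at 1.31 to 2.17 CPM with erianin and 2.97 to 3.745 CPM with DMSO. TRAC was called lower (log2 fold change, erianin minus DMSO, -0.91, edgeR adjusted p = 0.028) and made up nearly all of the T-cell sum. That sum was 1.37 to 2.17 CPM with erianin and 2.97 to 3.75 CPM with DMSO. Sums for fibroblast or epithelial markers were at most 0.218 CPM, those for erythroid markers at most 0.143 CPM, and the plasma cell marker SDC1 had counts in 1 erianin library only. Plasma cell markers summed to 320.0 to 346 CPM with erianin and 252 to 291 CPM with DMSO. Most of that sum was MZB1, at 287 to 319 CPM with erianin and 196 to 214 CPM with DMSO. JCHAIN was lower in every erianin library, at 23.4 to 28.7 CPM against 38.3 to 86.9 CPM with DMSO. Of the 4 plasma cell markers tested, MZB1 was called higher and 3 were not called, with a median log2 fold change of -0.43. Natural killer markers summed to 4.75 to 5.60 CPM with erianin and 1.84 to 5.88 CPM with DMSO. Myeloid markers summed to 9.42 to 10.6 CPM with erianin and 4.30 to 7.27 CPM with DMSO. Most of this was LYZ, at 7.28 to 8.63 CPM with erianin and 4.205 to 7.06 CPM with DMSO. LYZ was not called (edgeR adjusted p = 0.18). CD14 (1.56 to 1.60 CPM with erianin, at most 0.265 CPM with DMSO) and CSF1R (59 counts over the 6 libraries) were called higher. The CSF1R call ended without erianin replicate 1 or 2 or DMSO replicate 2 or 3 (adjusted p up to 0.091). The part of myeloid markers in the results below was not tested.

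A B cell builds each antibody chain by joining germline segments: V, D and J for the heavy chain, V and J for a light chain. Joining removes or moves the DNA between the chosen segments, and class switching later removes the constant genes between the J segments and the constant gene in use. The J segments also lie close to enhancers, and unjoined segments and constant genes can be transcribed without a joined chain. A mature B cell usually displays 1 heavy chain with either a kappa or a lambda light chain, so a clone's RNA tends to carry few segments at high levels. In the lambda locus each constant gene has a J segment of its own just before it.

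The most counted light chain segment was IGLV1-44, and the nearest relative that also had counts, IGLV1-47, differs from it at few germline positions. The first 300 bases of their V exons are given because reads must be told apart at these bases to be assigned; capitals mark the 5 bases that differ. Over the whole coding model the 2 segments were 98.0% identical (7 of 351 bases differed). They come from chr22:22381041-22381340 and chr22:22357956-22358255 of GRCh38, plus strand, as do all sequences here from the GENCODE 29 germline transcripts, not from the line's own reads.
IGLV1-44: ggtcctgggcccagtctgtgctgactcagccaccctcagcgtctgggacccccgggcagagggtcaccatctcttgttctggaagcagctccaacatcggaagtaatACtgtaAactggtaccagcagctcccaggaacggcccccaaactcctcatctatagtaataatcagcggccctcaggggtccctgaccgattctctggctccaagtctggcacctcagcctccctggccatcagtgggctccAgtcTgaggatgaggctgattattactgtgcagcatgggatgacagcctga
IGLV1-47: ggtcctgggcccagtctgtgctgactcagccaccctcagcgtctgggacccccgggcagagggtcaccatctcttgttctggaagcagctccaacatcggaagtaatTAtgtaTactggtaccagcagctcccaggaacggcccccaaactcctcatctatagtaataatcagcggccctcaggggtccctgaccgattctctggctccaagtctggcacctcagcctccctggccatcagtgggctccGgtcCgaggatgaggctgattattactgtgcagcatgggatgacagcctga

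The lambda constant genes IGLC3 (chr22:22906342-22906641, plus strand) and IGLC2 (chr22:22900976-22901275, plus strand) are closer still, at 99.1% identity, with 3 of 317 bases different. Capitals mark those 3 bases in the first 300 bases of each constant exon, since counts of these genes can be split by how the authors' counting treated reads that match both.
IGLC3: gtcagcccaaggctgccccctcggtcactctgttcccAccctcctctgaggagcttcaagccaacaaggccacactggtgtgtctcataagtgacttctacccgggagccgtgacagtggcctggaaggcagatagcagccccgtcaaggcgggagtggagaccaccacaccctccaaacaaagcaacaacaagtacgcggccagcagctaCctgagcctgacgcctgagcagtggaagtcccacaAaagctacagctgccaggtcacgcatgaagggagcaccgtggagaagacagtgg
IGLC2: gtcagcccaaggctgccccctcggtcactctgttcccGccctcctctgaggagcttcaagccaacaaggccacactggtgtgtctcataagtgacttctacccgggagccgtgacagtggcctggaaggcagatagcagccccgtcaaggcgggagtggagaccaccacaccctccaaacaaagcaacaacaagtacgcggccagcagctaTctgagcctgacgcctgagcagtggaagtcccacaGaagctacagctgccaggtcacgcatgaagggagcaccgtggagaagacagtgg

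The only D segments with counts are shown next, with 2 heavy J segments and a lambda J segment that had counts, because these short segments are the ones whose values are described below. IGHD3-3 (chr14:105914359-105914389) and IGHD4-4 (chr14:105913222-105913237), and the heavy J segments IGHJ5 (chr14:105863814-105863862) and IGHJ6 (chr14:105863198-105863258), lie on the minus strand. The lambda segment IGLJ3 (chr22:22904988-22905025) lies on the plus strand. Its annotated model is longer (chr22:22904850-22905025), so its counts can include reads that lie before the printed bases. Capitals mark TGGGG in the heavy J segments, which begins the codons of their tryptophan and glycine, and TTCGG in IGLJ3, which begins those of phenylalanine and glycine. On the coding strand TGGGG was in 8 of 9 annotated heavy J segments and TTCGG in 5 of 7 coding lambda J segments, and on the other strand in 0 of either.
IGHD3-3: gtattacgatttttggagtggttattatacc
IGHD4-4: tgactacagtaactac
IGHJ5: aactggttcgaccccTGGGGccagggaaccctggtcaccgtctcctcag
IGHJ6: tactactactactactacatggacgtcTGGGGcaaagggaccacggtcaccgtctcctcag
IGLJ3: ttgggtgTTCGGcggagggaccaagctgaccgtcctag

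The antibody RNA of the line was concentrated in a lambda V segment, lambda constant genes, the gamma constant genes IGHG3 and IGHG1, and the kappa constant gene IGKC. The 7 genes that each held at least 1% of immunoglobulin counts in any library took 97.2% ± 0.081 of these counts in erianin libraries and 98.0% ± 0.602 in DMSO libraries (mean ± SD, n = 3 each). The other 55 shared the rest. By locus, 32 of the 62 genes were heavy, 8 kappa and 22 lambda, and 14 are annotated as pseudogenes. IGHV3OR16-9 and IGLVIVOR22-1 are orphons, copies outside the loci. An identifier in GENCODE 29 was found for 59, and IGHV4-80, IGHV3-79 and IGHV3-54 had none.

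Immunoglobulin genes together took 1.055%, 1.02% and 1.12% of all counts in erianin replicates 1, 2 and 3, against 1.496%, 1.14% and 1.11% in DMSO replicates 1, 2 and 3. The groups overlapped, with DMSO replicate 1 the highest library and DMSO replicate 3 below erianin replicate 3. On the CPM scale, with TMM factors, their summed level was 10170, 9649 and 10950 CPM with erianin and 15210, 12040 and 11610 CPM with DMSO, without overlap, and the ratio of the means was 0.792. Per length, as a share of the summed TPM, they took 12.9%, 12.4% and 13.3% in erianin libraries and 17.2%, 13.8% and 13.26% in DMSO libraries. On this scale the groups overlapped, and the ratio of the means was 0.874 over all libraries and 0.953 without DMSO replicate 1. In bulk RNA, fewer cells that make a transcript and less transcript per cell cannot be told apart.

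The lambda chain of the line rested on a single V segment. IGLV1-44 made up 98.5%, 98.7% and 98.5% of all lambda V counts in the erianin libraries and 99.3%, 98.7% and 98.7% in the DMSO libraries. On the per-length scale IGLV1-44 was the highest immunoglobulin gene in every library, with 44.2% to 53.0% of summed immunoglobulin TPM. IGLC3 had 15.8% to 25.4% and IGLC2 2.93% to 4.03%. Of lambda constant counts, IGLC3 held 83.1% to 84.3% with erianin and 81.9% to 87.6% with DMSO. IGLC1 was at 0 and IGLJ1 at 7 counts over all libraries, but all 460 exonic bases of IGLC1 and 122 of 127 bases of IGLJ1 are shared on the same strand with IGLL5, a gene of 621 counts, so their reads could not be told apart. IGLV1-47 had 0.809 to 0.949 counts per 100 IGLV1-44 counts with erianin and 0.504 to 0.947 with DMSO.

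The heavy chain constant genes were of the gamma class. IGHG3 gave 54.3% to 55.0% of heavy constant counts in erianin libraries and 63.4% to 66.3% in DMSO libraries, and IGHG1 gave 42.4% to 43.05% with erianin and 32.8% to 34.3% with DMSO. The coding sequences of IGHG3 and IGHG1 were 96.7% identical over 1196 aligned bases. IGHM, the first constant gene after the J segments, had 1 count in all 6 libraries and IGHD, the delta gene beside it, had 0; both are under the floor of 3 counts per library, equal to 0.0819 to 0.0986 CPM, which like all such limits covers counting error only. IGHG4 had 17665 counts over the 6 libraries, IGHG2 1399 and IGHA1, an alpha gene, 35.

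No intact heavy V segment stood at the level of the gamma genes. The most counted heavy V segment was IGHV5-78, which is annotated as a pseudogene and took 65.4% to 65.95% of heavy V counts with erianin and 64.4% to 68.9% with DMSO. All heavy V counts came to 5.77, 5.80 and 5.51 per 100 counts of IGHG1 and IGHG3 in the erianin libraries, against 2.53, 4.50 and 4.42 in the DMSO libraries. In the lambda locus the same measure, V counts per 100 counts of IGLC2 and IGLC3, was 226 to 247 with erianin and 166 to 251 with DMSO. The counts in both measures are not scaled by length, and the coding sequence has 1337 bases in IGHG3 and 317 in IGLC3. Per length, IGHV5-78 had 3.03% to 3.09% of summed immunoglobulin TPM with erianin and 1.93% to 2.43% with DMSO. IGHG3 had 3.30% to 3.51% with erianin and 3.92% to 5.44% with DMSO, and IGHG1 2.15% to 2.28% and 1.77% to 2.27%. As IGHV5-78 is annotated as a pseudogene, no heavy V segment is named here as that of the line's own chain. IGHV5-78 shared 63.8% to 70.8% of aligned bases with the other heavy V genes of the rule that have a model.

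The kappa locus gave a constant gene with little V and no J. IGKC stood next to IGLC3 per length, with 15.6% to 16.1% of summed immunoglobulin TPM with erianin and 7.91% to 8.77% with DMSO. All 5 IGKJ segments were at 0. Kappa V counts were 1.82, 1.74 and 1.91 per 100 IGKC counts in the erianin libraries and 1.40, 1.98 and 1.77 in the DMSO libraries, and the groups overlapped. IGKV1-39 and its duplicate IGKV1D-39, identical over 351 aligned bases, made up 91.1% to 95.04% of kappa V counts with erianin and 89.4% to 95.04% with DMSO.

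**Figure D1:**
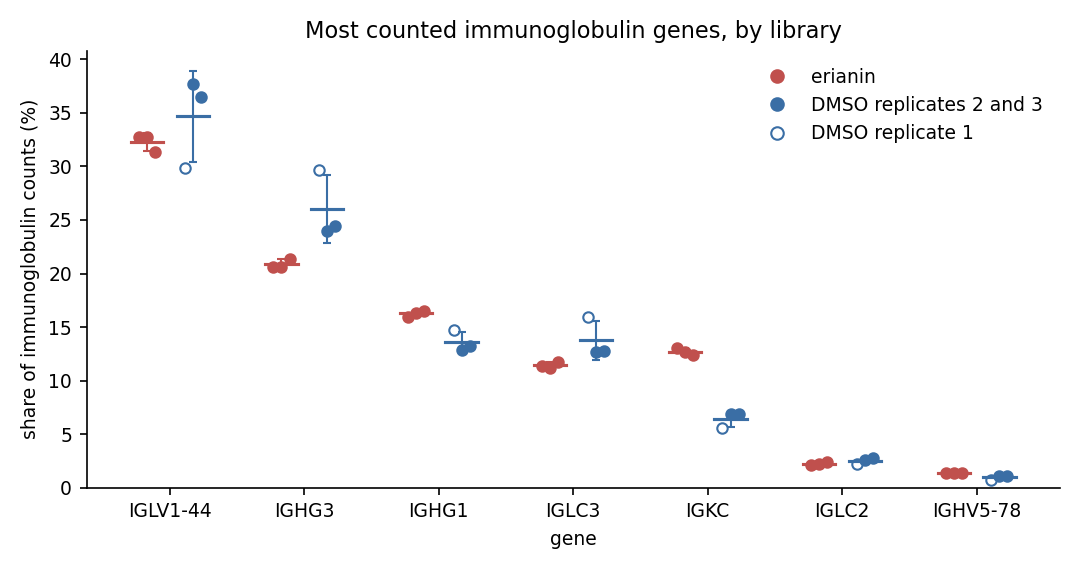
Share of all immunoglobulin counts (%, vertical axis) of the 7 genes with at least 1% in any library, for 3 erianin and 3 DMSO libraries; points are libraries, short lines means and bars SD. IGKC is higher in all 3 erianin libraries (12.4% to 13.05%) than in the DMSO libraries (5.61% to 6.92%), and DMSO replicate 1, the open point, is the highest or the lowest DMSO library for each of the 7 genes.

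Counts lay almost entirely on one side of a boundary in the heavy and lambda V clusters. The boundaries below were chosen after the counts were seen, so the pattern is a description with no test. In the heavy locus, 42 V symbols with a position lie at IGHV3-52 or farther from the D and J segments. Of these, 17 met the rule, and all 42 together had 40282 counts. Between IGHV3-52 and the D segments lie 74 symbols, of which 0 met the rule and 64 were at 0. Their counts came to 55 in all, and the highest, IGHV3-64D, had 17.

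The lambda V cluster had the same form around IGLV1-44. There, 28 V symbols lie at IGLV1-44 or farther from the J segments, 12 of them met the rule, and all but IGLV1-44 had 9903 counts together. On the J side lie 44 symbols with 97 counts in all. IGLV1-36 was the only member among them, with 58 counts, and it shares 93.5% of its bases with IGLV1-44. Both patterns were seen in each group. Heavy V counts on the far side were 22503 with erianin and 17779 with DMSO, and on the near side 32 with erianin and 23 with DMSO. Lambda V counts were 356293 with erianin and 434174 with DMSO on the far side, and 63 with erianin and 34 with DMSO on the near side.

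Among the J and constant genes of the heavy locus counts also lay on one side of a boundary, and among the D segments they lay in 1 adjacent pair with zeros on both sides. Of 27 D segments on the locus, IGHD3-3 had 2187 counts and its neighbour toward the J segments, IGHD4-4, had 2128, and the other 25 had 0. The 16 bases of IGHD4-4 are identical to IGHD4-11, which was at 0. IGHJ5, the pseudogene IGHJ3P and IGHJ6, the last 3 J segments before the constant genes, had 626, 1074 and 875 counts, while the 6 J symbols before them had 4 counts together. Among the constant genes, the 9 from IGHG3 onward had 922114 counts, and the 2 before IGHG3 had 1. In the lambda locus IGLJ3 had 185 counts and IGLJ2 123.

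**Figure D2:**
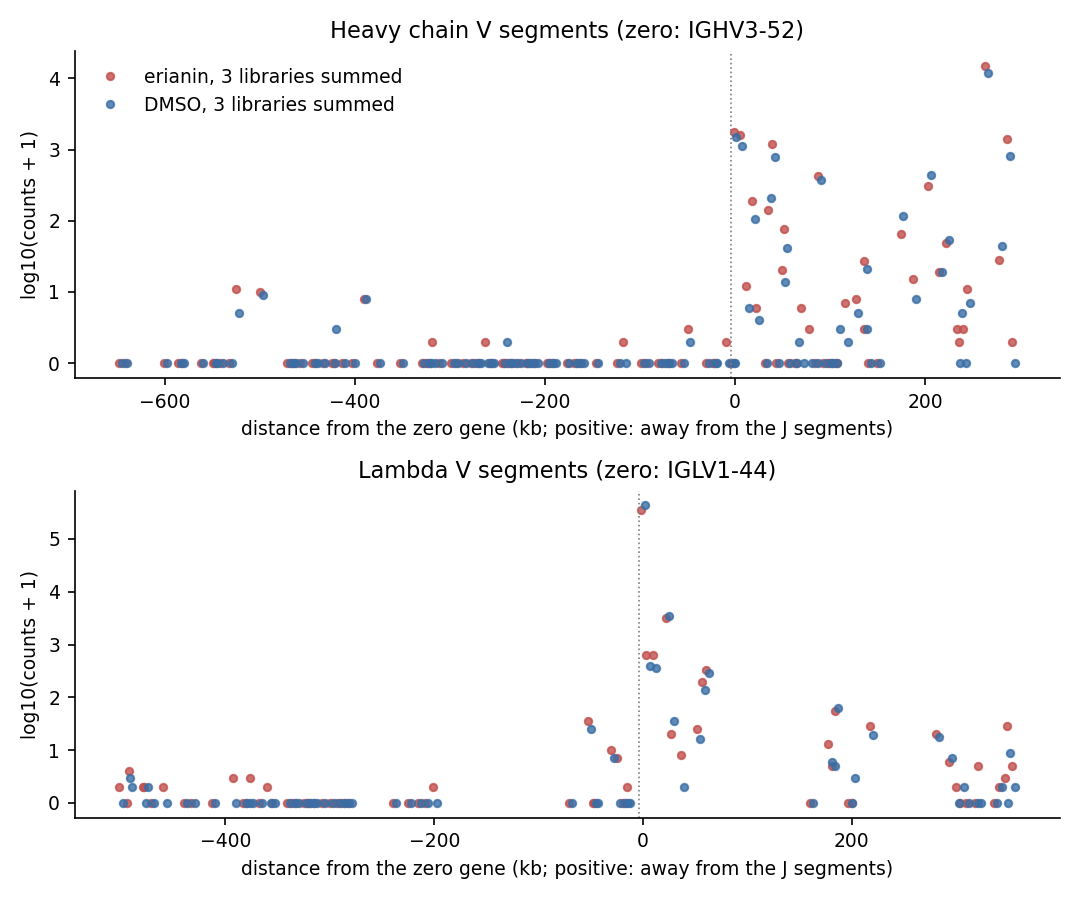
Counts of each V segment, as log10(counts + 1) summed over the 3 erianin or the 3 DMSO libraries, against its distance in kb from IGHV3-52 (upper panel) or IGLV1-44 (lower panel); positive distances point away from the J segments. Counts of 20 or more lie right of the dotted line, just before the zero gene, in both groups, with IGLV1-36 (58 counts over the 6 libraries) the exception in the lambda panel.

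As shares of immunoglobulin counts, IGKC and IGHG1 were higher and IGHG3 and IGLC3 lower in every erianin library than in any DMSO library. Share groups did not overlap for 25 of the 62 genes, and such a share has no counterpart among other genes. IGKC, the kappa constant gene, held 13.05%, 12.7% and 12.4% of immunoglobulin counts in erianin libraries and 5.61%, 6.92% and 6.88% in DMSO libraries, a difference of 6.25 percentage points (erianin minus DMSO). The groups did not overlap: every erianin library was above every DMSO library. The share of IGHG3 was 20.6%, 20.6% and 21.4% with erianin and 29.7%, 24.0% and 24.4% with DMSO, a difference of -5.16 percentage points with every erianin library below every DMSO library. IGHG1 held 15.95%, 16.3% and 16.5% with erianin and 14.7%, 12.9% and 13.2% with DMSO, higher in every erianin library.

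IGLV1-44 held 32.8%, 32.7% and 31.3% of immunoglobulin counts with erianin and 29.9%, 37.7% and 36.5% with DMSO. The groups overlapped because DMSO replicate 1 was below all erianin libraries. IGLC3 was at 11.4%, 11.2% and 11.7% with erianin and 15.9%, 12.6% and 12.7% with DMSO, and IGHV5-78 at 1.39%, 1.40% and 1.38% with erianin and 0.773%, 1.09% and 1.07% with DMSO; neither pair of groups overlapped. By two-sided exact permutation tests the share differences of IGKC, IGHG3, IGHG1, IGLC3 and IGHV5-78 each had p = 0.1, the smallest that 3 against 3 libraries can give, and that of IGLV1-44 p = 0.4. The smallest value after Benjamini-Hochberg adjustment over the 62 exact tests was 0.248, so no share passed a threshold of 0.05.

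Since a share moves when any other gene moves, levels were tested on all genes of the table. By edgeR's quasi-likelihood test, adjusted over 11550 genes, 46 of the 62 immunoglobulin genes had enough counts to be tested, and 16 had not. Of the 46, 3 were called higher with erianin (6.52%, against 11.8% of all genes tested) and 3 lower (6.52%, against 12.3%), and 40 were not called. CPM groups did not overlap for 19 of the 46 (41.3%, against 46.8% of all genes tested), 12 with erianin above DMSO and 7 below. The median log2 fold change, erianin minus DMSO, was 0.16 over the 46 and -0.003 over all genes tested. All 3 shares were below those over all genes.

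Without DMSO replicate 1, 51 immunoglobulin genes were tested, 11 were called higher (21.6%, against 27.8% of all genes) and 6 lower (11.8%, against 27.4%), and both medians were 0.03. By locus, the median log2 fold change over all 6 libraries was 0.65 for kappa (5 tested, 5 positive), -0.17 for lambda (16 tested, 6 positive) and 0.19 for heavy (25 tested, 16 positive).

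**Figure D3:**
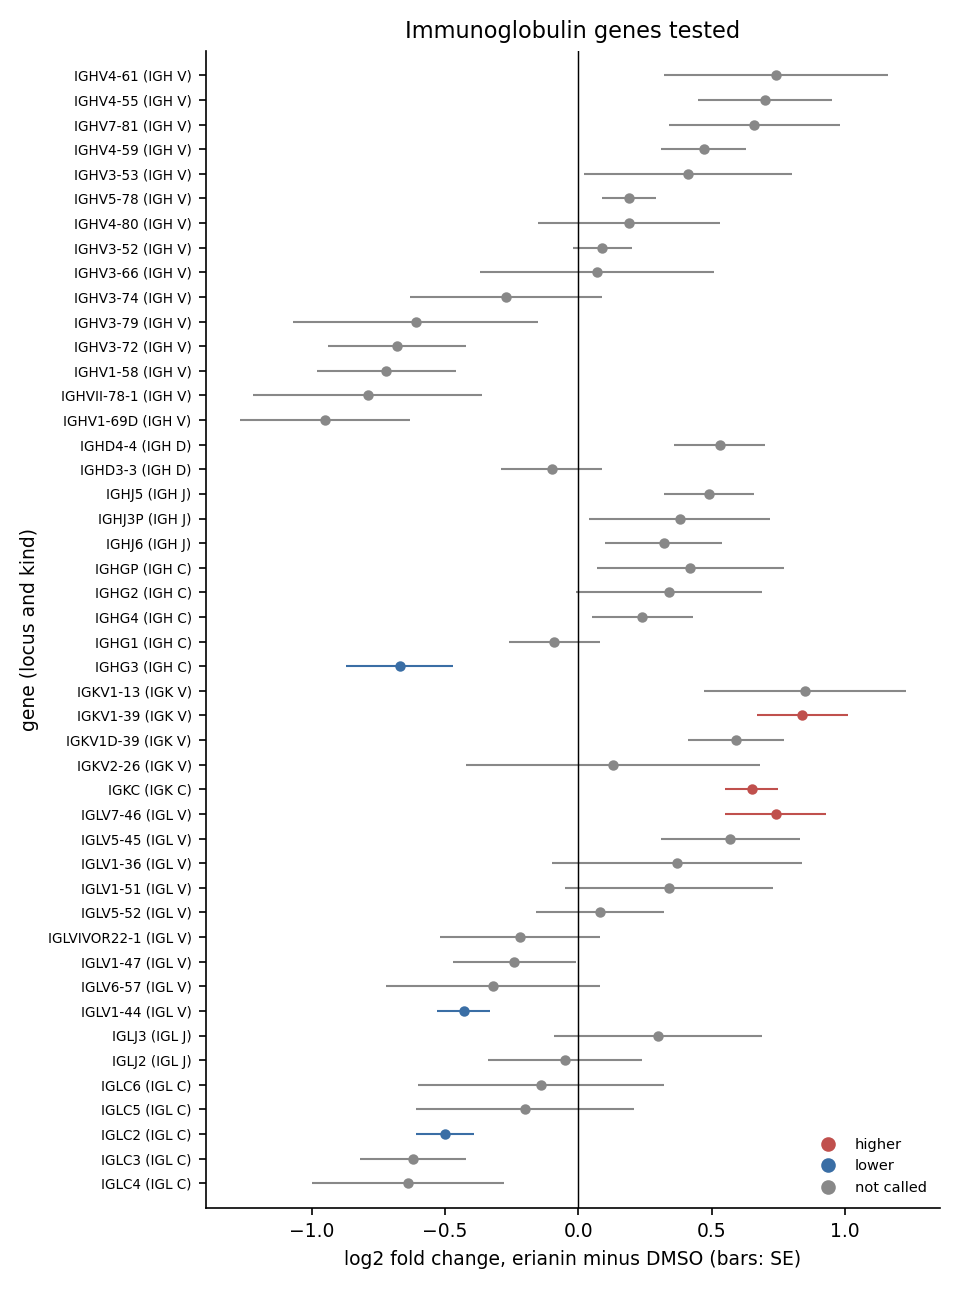
Log2 fold change (erianin minus DMSO, horizontal axis) of the 46 immunoglobulin genes tested with edgeR, grouped by locus and kind; bars are SE and colours show calls at an adjusted p of 0.05. IGKC, IGKV1-39 and IGLV7-46 were called higher and IGLV1-44, IGLC2 and IGHG3 lower.

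Kappa transcripts rose with erianin, in the constant gene and in the most counted V segment. IGKC was at 1327, 1226 and 1357 CPM in erianin libraries and 853, 833 and 798 CPM in DMSO libraries. All erianin libraries were above all DMSO libraries, with a log2 fold change of 0.65 ± 0.10 (SE; edgeR adjusted p = 0.0053). IGKV1-39 was at 16.5, 13.9 and 17.2 CPM with erianin and 7.10, 10.4 and 9.06 CPM with DMSO, again without overlap (log2 fold change 0.84 ± 0.17, adjusted p = 0.014).

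IGKV1D-39, which the germline sequence cannot tell from IGKV1-39, was at 5.46, 5.81 and 7.46 CPM with erianin and 4.24, 4.68 and 3.56 CPM with DMSO. Its groups did not overlap either, and it did not pass (log2 fold change 0.59 ± 0.18, adjusted p = 0.057). All kappa genes together took 0.140%, 0.131% and 0.142% of all counts with erianin and 0.0851%, 0.0806% and 0.0776% with DMSO, 1.70 times as much. The call of IGKC held with each library left out (adjusted p up to 0.042) and ended with offsets for GC content and length (log2 fold change 0.41, adjusted p = 0.13) and on log2(TPM + 1) (0.93, adjusted p = 0.10). The call of IGKV1-39 ended without erianin replicate 1 or 3, with adjusted p up to 0.068, and on log2(TPM + 1) (adjusted p = 0.062).

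In the lambda locus, IGLV1-44 and IGLC2 were called lower with erianin, and IGLC3 did not pass over all libraries. IGLV1-44 was at 3332, 3156 and 3427 CPM in erianin libraries and 4540, 4535 and 4238 CPM in DMSO libraries. Each erianin library was below each DMSO library, and the log2 fold change was -0.43 ± 0.10 (edgeR adjusted p = 0.024). IGLC2 was at 214, 216 and 259 CPM with erianin and 338, 309.9 and 324 CPM with DMSO, with no overlap and a log2 fold change of -0.50 ± 0.11 (adjusted p = 0.019). IGLC3, the more abundant constant gene, was at 1155, 1080 and 1284 CPM with erianin and 2419, 1522 and 1478 CPM with DMSO.

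DMSO replicate 1 was the highest library for IGLC3, which did not pass over all libraries (log2 fold change -0.62 ± 0.20, adjusted p = 0.063) and was called lower without that library (-0.34 ± 0.07, adjusted p = 1e-04). The other 3 lambda constant genes tested, the pseudogenes IGLC4, IGLC5 and IGLC6, had 86 to 281 counts each and did not pass (-0.64 ± 0.36, -0.20 ± 0.41 and -0.14 ± 0.46), and without DMSO replicate 1 IGLC5 was at 0.32. IGLV1-44 per 100 counts of IGLC2 and IGLC3 was 243, 244 and 222 with erianin and 165, 247.5 and 235 with DMSO, and the groups overlapped. The IGLV1-44 call ended without any 1 of the erianin libraries or DMSO replicates 2 or 3 (log2 fold change -0.46 to -0.38, adjusted p up to 0.13), and that of IGLC2 without erianin replicate 1 or 2 or DMSO replicate 3 (adjusted p up to 0.11). Both calls ended on log2(TPM + 1), where the log2 fold change of IGLV1-44 was -0.15 (adjusted p = 0.84) and that of IGLC2 -0.23 (adjusted p = 0.57), and the IGLV1-44 call also ended when a replicate block was added (adjusted p = 0.084), when counts were scaled by their totals (0.055) and when they were scaled by the upper quartile (0.052).

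The other lambda V segments tested had log2 fold changes on both sides of 0. IGLV7-46, which shares 66.4% of its aligned bases with IGLV1-44, was at 6.20, 5.09 and 6.89 CPM in erianin libraries and 2.92, 4.01 and 3.97 CPM in DMSO libraries. It was above all DMSO libraries in each erianin library and was called higher (log2 fold change 0.74 ± 0.19, edgeR adjusted p = 0.032). That call ended without any 1 of the erianin libraries or DMSO replicates 2 or 3 (adjusted p up to 0.11) and on log2(TPM + 1) (adjusted p = 0.079). Of the 9 lambda V segments tested, 5 had positive and 4 negative log2 fold changes, and IGLV1-44 had the lowest.

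Within the heavy locus, IGHG3 fell with erianin, and IGHG1 did not pass. IGHG3 was at 2096, 1987 and 2343 CPM in erianin libraries and 4514, 2884 and 2838 CPM in DMSO libraries. No library of one group reached the other, and the log2 fold change was -0.67 ± 0.20 (edgeR adjusted p = 0.045). DMSO replicate 1 was the highest, and without it the log2 fold change was -0.41 ± 0.07 (adjusted p = 1.2e-05). The call ended without any 1 of the erianin libraries (adjusted p up to 0.17), under total-count and upper-quartile scaling (adjusted p = 0.082 and 0.062), with the filter at 1 CPM (0.051), with a replicate block (0.056), with offsets for GC content and length (0.065) and on log2(TPM + 1) (log2 fold change -0.37, adjusted p = 0.30). IGHG1 was at 1622, 1577 and 1808 CPM with erianin and 2236, 1549 and 1537 CPM with DMSO, which overlap, with a log2 fold change of -0.09 ± 0.17 (adjusted p = 0.74).

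The balance of the 2 gamma genes differed between the groups in every library. IGHG1 counts per 100 IGHG3 counts were 77.4, 79.4 and 77.2 with erianin and 49.5, 53.7 and 54.2 with DMSO, 1.49 times as high. Per length the ratio was 65.2, 66.9 and 65.05 with erianin and 41.7, 45.3 and 45.6 with DMSO. Without DMSO replicate 1 the ratio of the group means was 1.45. Counts of IGKC per 100 counts of IGLC2 and IGLC3 were 96.9, 94.6 and 87.96 with erianin and 30.9, 45.5 and 44.3 with DMSO, and the ratio of the means was 2.32 over all libraries and 2.08 without DMSO replicate 1. These ratios were chosen after the values were seen and are given as a description.

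**Figure D4:**
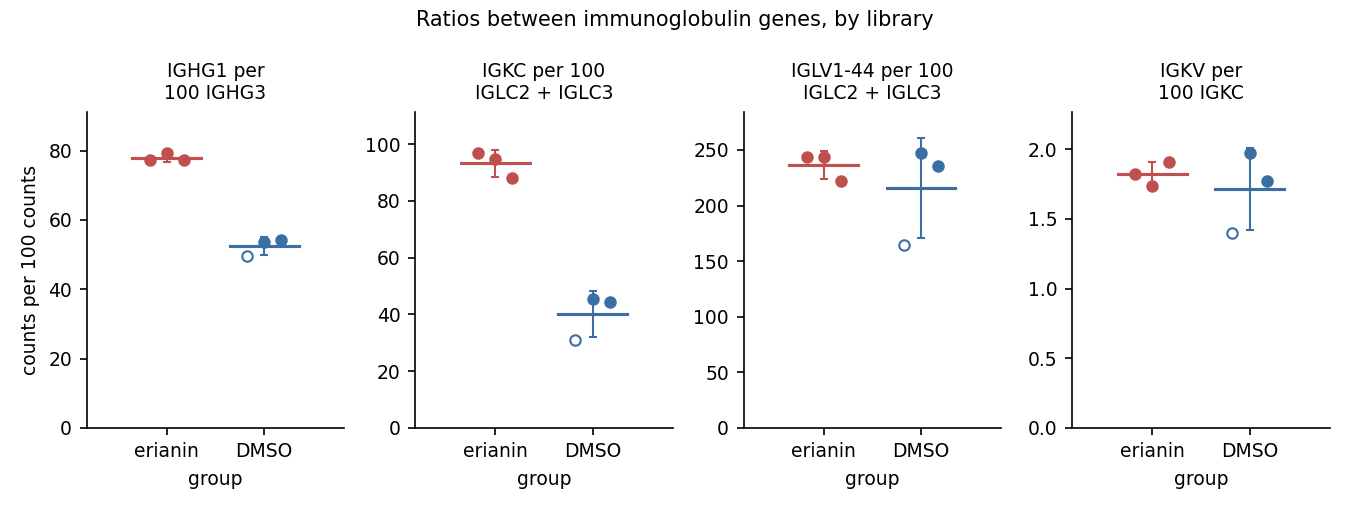
Ratios of counts between immunoglobulin genes in 3 erianin and 3 DMSO libraries, each axis in counts per 100 counts; points are libraries (open, DMSO replicate 1), short lines means and bars SD. Erianin libraries are above all DMSO libraries for IGHG1 over IGHG3 (77.2 to 79.4 against 49.5 to 54.2) and IGKC over lambda constant genes, and the groups overlap for IGLV1-44 over lambda constant genes and for IGKV over IGKC.

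V, D and J segments of the heavy locus did not pass the test in either direction over all 6 libraries. IGHV5-78 was at 141, 135 and 151 CPM in erianin libraries and 118, 131 and 124 CPM in DMSO libraries. The groups did not overlap, and the log2 fold change of 0.19 ± 0.10 had an edgeR adjusted p of 0.20 (0.17 without DMSO replicate 1, adjusted p = 0.031). The other 14 heavy V segments tested ranged from -0.95 for IGHV1-69D to 0.74 for IGHV4-61. Without DMSO replicate 1, those called were IGHV4-59 (0.59, edgeR adjusted p = 0.00036), IGHV7-81 (0.36, adjusted p = 0.01) and IGHV4-61 (1.18, adjusted p = 0.027), all higher. IGHD3-3 had 402, 354 and 354 counts with erianin and 447, 311 and 319 with DMSO, and the groups overlapped (log2 fold change -0.10 ± 0.19, adjusted p = 0.74). IGHD4-4 had 477, 376 and 452 counts with erianin and 213, 328 and 282 with DMSO, all erianin libraries above all DMSO libraries, and missed the threshold (0.53 ± 0.17, adjusted p = 0.057; 0.43 without DMSO replicate 1, adjusted p = 0.0045).

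The J segments were few in counts. IGHJ3P had 200, 178 and 250 counts in erianin libraries and 70, 171 and 205 in DMSO libraries, which overlap (log2 fold change 0.38 ± 0.34, edgeR adjusted p = 0.45). IGHJ5 and IGHJ6 had log2 fold changes of 0.49 and 0.32 and did not pass. IGLJ3 had 46, 33 and 27 counts with erianin and 12, 35 and 32 with DMSO (0.30 ± 0.39, adjusted p = 0.62), also with overlap. In each of IGHJ3P, IGHJ5, IGHJ6 and IGLJ3, DMSO replicate 1 was the lowest library.

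Proteins that act with antibody chains were examined through 4 gene lists, beginning with partners of the receptor and its surrogate light chain. Of 13 tested, 1 was called higher (CD79A) and 2 lower (CD79B and SYK), against 11.8% and 12.3% of all genes; without DMSO replicate 1 the counts were 1 and 5, against 27.8% and 27.4% of all genes. CD79A, which with CD79B carries the receptor's signal, was at 564, 564 and 643 CPM in erianin libraries and 449.7, 453 and 447 CPM in DMSO libraries (log2 fold change 0.39 ± 0.10, edgeR adjusted p = 0.028). CD79B was at 932, 877 and 1024 CPM with erianin and 1050, 2056 and 2073 CPM with DMSO (-0.87 ± 0.25, adjusted p = 0.044). For CD79A the groups did not overlap and for CD79B every erianin library was lower, with DMSO replicate 1 nearest to them.

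SYK, the kinase that binds the phosphorylated receptor chains, had a log2 fold change of -0.34 ± 0.09 (edgeR adjusted p = 0.032). The calls of CD79A, CD79B and SYK each ended without any 1 of the erianin libraries or DMSO replicates 2 or 3, with adjusted p up to 0.095, 0.16 and 0.16. That of CD79A also ended with offsets for GC content and length (log2 fold change 0.19, adjusted p = 0.44), with a replicate block (0.081) and on log2(TPM + 1) (0.11). That of CD79B also ended under total-count and upper-quartile scaling (adjusted p = 0.058 and 0.065), with the filter at 1 CPM (0.050), with limma-voom (0.061) and on log2(TPM + 1) (log2 fold change -0.53, adjusted p = 0.46). VPREB3, related to the surrogate light chain, was at 65.1 to 75.3 CPM with erianin and 44.6 to 92.8 CPM with DMSO and did not pass (adjusted p = 0.80). IGLL5 was at 2.95, 2.80 and 2.52 CPM with erianin and 3.35, 3.61 and 3.21 CPM with DMSO (adjusted p = 0.21).

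Among 20 tested transcription factors of the octamer and B-lineage group, 2 were called higher and 8 lower, against 11.8% and 12.3% of all genes, with a median log2 fold change of -0.49 against -0.003 over all genes. Without DMSO replicate 1 the counts were 6 higher and 10 lower, against 27.8% and 27.4% of all genes. PAX5, which sets B-cell identity, was at 405, 421 and 430 CPM in erianin libraries and 933, 798 and 778 CPM in DMSO libraries (-1.0 ± 0.11, edgeR adjusted p = 0.0023). POU2AF1, the coactivator that binds octamer factors at immunoglobulin promoters, was at 226, 242 and 241 CPM with erianin and 467.5, 359 and 384 CPM with DMSO (-0.77 ± 0.12, adjusted p = 0.0064). POU2F2, the B-cell octamer factor itself, was at 40.2, 37.8 and 44.5 CPM with erianin and 27.1, 20.2 and 20.7 CPM with DMSO (0.85 ± 0.15, adjusted p = 0.0084). These 3 genes had no overlap between groups, and PAX5 and POU2AF1 were lower while POU2F2 was higher.

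SPIB, an ETS factor of B cells, was at 90.9, 91.4 and 93.7 CPM in erianin libraries and 24.5, 35.5 and 40.2 CPM in DMSO libraries (1.46 ± 0.18, edgeR adjusted p = 0.0031), with all erianin libraries above all DMSO libraries. EBF1, an early B-cell factor, fell (-0.91 ± 0.26, adjusted p = 0.041), and this call ended without any 1 of the erianin libraries (adjusted p up to 0.15). IRF4, a factor of light chain enhancers and of plasma cells, had a log2 fold change of -0.41 ± 0.16 and did not pass (adjusted p = 0.099). The calls of PAX5, POU2F2 and SPIB held with each library left out, and that of POU2AF1 ended without erianin replicate 1 (adjusted p = 0.051) and on log2(TPM + 1) (log2 fold change -0.49, adjusted p = 0.072).

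Of 15 tested genes of the secretory programme of plasma cells, 2 were called higher and 3 lower, against 11.8% and 12.3% of all genes. Without DMSO replicate 1 the counts were 4 higher and 5 lower, against 27.8% and 27.4% of all genes. MZB1, a chaperone of antibody assembly in the endoplasmic reticulum, was at 287, 296 and 319 CPM with erianin and 196, 208 and 214 CPM with DMSO (0.55 ± 0.10, edgeR adjusted p = 0.0087). ERN1, the sensor kinase that splices XBP1 RNA, was at 24.2, 22.1 and 24.2 CPM with erianin and 72.7, 59.3 and 57.95 CPM with DMSO (-1.43 ± 0.13, adjusted p = 0.0013). XBP1 was at 83.2, 83.9 and 88.9 CPM with erianin and 129.9, 122 and 122.5 CPM with DMSO (-0.55 ± 0.09, adjusted p = 0.0081). None of these 3 overlapped between groups, with MZB1 higher and ERN1 and XBP1 lower in every erianin library.

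CD38, a surface enzyme of activated B and plasma cells, fell (-0.91 ± 0.13, edgeR adjusted p = 0.0048). JCHAIN, which joins antibodies into polymers, was at 28.7, 26.1 and 23.4 CPM with erianin and 86.9, 38.3 and 38.4 CPM with DMSO, with DMSO replicate 1 the highest, and missed the threshold (-1.07 ± 0.32, adjusted p = 0.050). PRDM1, the plasma cell repressor, and ELL2, an elongation factor of secretory heavy chain RNA, did not pass (adjusted p = 0.17 and 0.088). The call of MZB1 ended without erianin replicate 2 (adjusted p = 0.054) and that of XBP1 without erianin replicate 1 or 2 (adjusted p up to 0.066). On log2(TPM + 1) both ended, with adjusted p of 0.061 for MZB1 and 0.34 for XBP1.

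Genes of recombination, class switching and hypermutation gave 0 higher and 6 lower calls among 19 tested, against 11.8% and 12.3% of all genes, with a median log2 fold change of -0.35. Without DMSO replicate 1 the counts were 5 higher and 11 lower, against 27.8% and 27.4% of all genes. RAG1, which cuts DNA at the segments to be joined, was at 181, 186 and 171 CPM in erianin libraries and 439, 339 and 332 CPM in DMSO libraries (-1.05 ± 0.13, edgeR adjusted p = 0.0033). APEX2, an endonuclease of DNA repair, was at 57.8, 55.2 and 64.7 CPM with erianin and 90.3, 97.7 and 99.2 CPM with DMSO (-0.69 ± 0.11, adjusted p = 0.0058). PRKDC, the kinase of end joining, fell by 0.80 on the log2 scale (adjusted p = 0.0033). None of these 3 genes overlapped between groups; the calls of RAG1 and PRKDC held with each library left out, and that of APEX2 ended without erianin replicate 2 (adjusted p = 0.051).

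**Figure D5:**
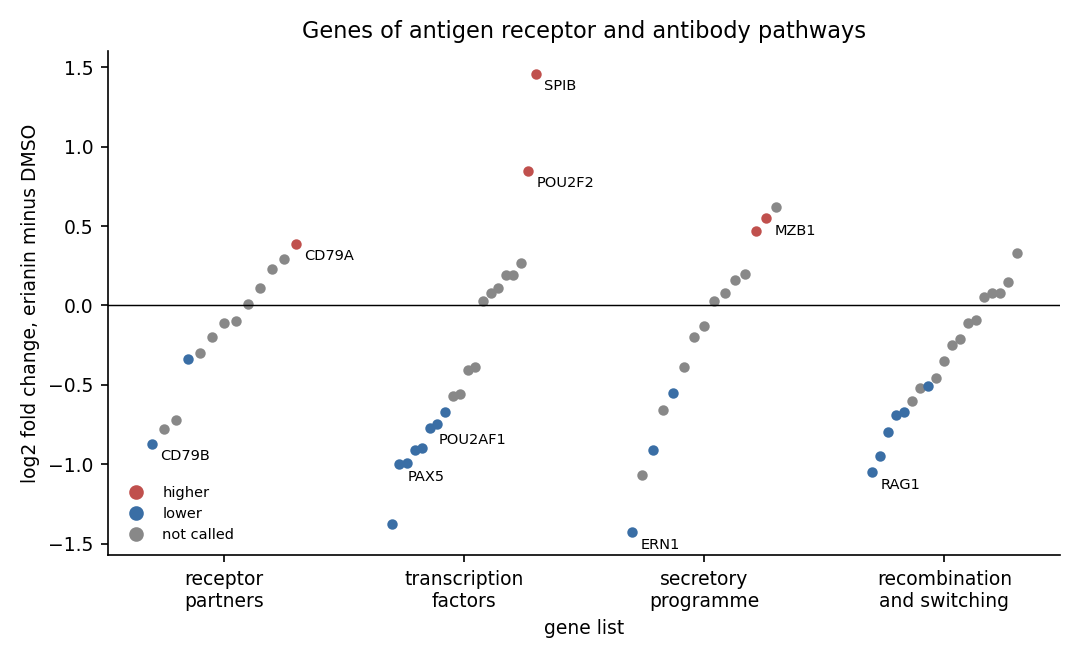
Log2 fold change (erianin minus DMSO, vertical axis) of the tested genes in 4 lists around antibody expression, ordered by value within each list; colours show edgeR calls at an adjusted p of 0.05. ERN1 (-1.43) is the lowest and SPIB (1.46) the highest, and calls in the transcription factor and recombination lists are mostly lower.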

How the data were processed

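Per the labels' protocols, total RNA of SU-DHL-8 cells was taken with TRIzol and sequenced as Illumina libraries. Raw counts of reads per gene, and TPM values, an abundance scaled by length, were used as the authors deposited them. Tools listed in the submitters' processing notes are featureCounts 2.0.1, StringTie 2.2.1, STAR 2.7.10 and fastp 0.23.2, with the build GRCh38; their order is not stated. The handling of strand and of reads that match several genes is not given in the sources used here, so counts of near-identical segments may be split or merged.

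Of 65807 entries, 61 repeats of a symbol were left out, and 7 symbols that differed in the TPM table were taken from the count table. Positions and germline sequences came from GENCODE release 29 (GRCh38), matched by Ensembl identifier for 38264 symbols. Likeness was computed by pairwise alignment (Biopython 1.88).

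The main test was edgeR 4.0.16's quasi-likelihood F test (R 4.3.3) on counts with TMM factors and filterByExpr, treatment as the single term, with Benjamini-Hochberg adjustment over all 11550 genes tested and calls at 0.05. SE was obtained by dividing the fold change by the root of F. For shares, exact permutation tests were two-sided (scipy 1.17.1). The fit was tested on simulated counts. Alternatives used limma 3.58.1, DESeq2 1.42.0 and mgcv 1.9.3, and plots used matplotlib 3.10.9.

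The genes, lists and tests were chosen with earlier results of these data known. Named immunoglobulin genes were those with at least 1% of immunoglobulin counts in any library, the most counted gene of each kind in each locus, and every called gene; other genes are named as edges of a range, a count or a boundary, chosen after their values were seen. In the pathway lists, 15 genes were named by symbol, together with up to 3 called genes per list; 1 further gene is not reported here.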

Additional observations from a re-analysis of the deposited data

How the results depend on the processing

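Against 3 immunoglobulin genes called higher and 3 lower, scaling by total counts alone gave 7 and 1, upper-quartile scaling 7 and 1, DESeq2's test 6 and 6, and limma on log2(TPM + 1) or log2(TPM + 0.1) 1 and 0. Total counts alone moved the median log2 fold change of all genes by 0.11, log2(TPM + 1) by 0.21 and log2(TPM + 0.1) by 0.28. DESeq2 size factors, the other filters, limma-voom and the offsets for GC content and length stayed within 1.5 times of both counts. Leaving out 1 library gave 1 to 11 higher and 0 to 6 lower, with the largest counts without DMSO replicate 1. With the replicate block the counts were 3 and 1. Deviations from the group means correlated at 0.167, -0.143 and 0.231 between same-numbered libraries 1, 2 and 3. Erianin replicates 1, 2 and 3 matched best with DMSO replicates 1, 1 and 2. Whether the numbers pair the libraries cannot be told from these values, because each group has only 3 libraries and DMSO replicate 1 stood apart. The share difference of IGHG3 was -10.4 percentage points within its locus, -8.83 among constant genes and -1.09 on TPM, that of IGKC -0.104, 9.37 and 7.37, and that of IGLV1-44 2.16 within its locus and -5.79 on TPM. Leaving out 1 library moved them between -6.19 and -3.33 for IGHG3, 5.82 and 6.48 for IGKC, and -4.82 and -0.908 for IGLV1-44. The log2 ratio of the whole immunoglobulin share of counts stayed negative, between -0.31 and -0.08, with any library left out. Over the named genes and the settings other than leaving out a library, 192 fold changes kept their side of the threshold, 37 lost the call and 2 gained it, and no called one changed sign. The causes of these changes were not tested. Counts under 20 over the 6 libraries were too few for a test.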
